A study of Mus musculus with 12 samples.

Results

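A set of 10 lysine acetyltransferase genes was followed through the RNA-seq libraries of mouse acute myeloid leukemia (AML) cells treated with CCS1477 (inobrodib), a small molecule that binds the bromodomains of p300 and CBP. The genes were chosen by name from the deposited expression table and are 10 of its 15651 genes: *Ep300* (p300), *Crebbp* (CBP), *Kat2a* (GCN5), *Kat2b* (PCAF), *Kat5* (TIP60), *Kat6a* (MOZ), *Kat6b* (MORF), *Kat7* (HBO1), *Kat8* (MOF) and *Hat1*. Under CCS1477, *Ep300*, *Crebbp*, *Kat2b*, *Kat5* and *Kat6a* rose and *Kat2a* fell when both genotypes were fitted together, with *Ep300* and *Crebbp*, the genes of the drug's own targets, at 1.70-fold ± 0.113 and 1.74-fold ± 0.0743 of the DMSO level (SD, n = 6 mice). *Kat2a* dropped to 0.444 ± 0.081 of its DMSO level in the same mice. *Kat7* and *Hat1*, which had the highest levels of the group, stayed close to their DMSO values.

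The leukemias came from mice of the genotypes Dnmt3a fl/fl, Flt3 ITD/ITD, Mx1Cre (*D/F*) and Tet2 fl/fl, Flt3 ITD/ITD, Mx1Cre (*T/F*). Dnmt3a methylates cytosine in CG dinucleotides, Tet2 oxidises methylcytosine, and the internal tandem duplication (ITD) makes the Flt3 receptor tyrosine kinase active without its ligand. Splenocytes of 3 moribund mice per genotype were enriched on c-Kit (CD117) beads and cultured with SCF, IL-6 and IL-3, and every mouse gave 1 culture with CCS1477 and 1 with its solvent DMSO, both kept for 6 hours, which made 12 libraries in 4 groups of 3. The dose was 4 µM in *D/F* and 2 µM in *T/F* cells, so the effects of genotype and dose cannot be told apart. All cells, DMSO controls included, carry Flt3 ITD and the Mx1Cre transgene, whose interferon-responsive promoter is active in blood cells and which was left to leak without induction. No cells with wild-type Flt3 or of a single mutation were in these libraries, and the ages of the individual mice are not in the sources used here. The paper reports a shorter median survival of *T/F* than of *D/F* mice, so age may differ between the genotypes as well as dose.

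Lysine acetyltransferases move an acetyl group from acetyl-CoA to the side chain of lysine, in histone tails and in many other proteins. Acetylation opens chromatin and is read by bromodomains, and p300 and CBP, which carry a bromodomain of their own, place H3K27ac at enhancers and promoters and serve as coactivators for many transcription factors of blood cells. The other families act in large complexes: GCN5 and PCAF in SAGA and ATAC, and the MYST enzymes TIP60, MOZ, MORF, HBO1 and MOF with their own scaffold and reader subunits. HAT1 acetylates newly made histone H4 before it is assembled into chromatin.

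Values are TPM, a measure of transcript abundance scaled to gene length and to the sum of each library, so levels can be compared between genes. They are relative: no spike-in was recorded, the number of reads behind a value is unknown, and in these bulk samples fewer cells of a type and less RNA per cell cannot be told apart. Libraries of a group were correlated across genes at 0.978 or more, except those of *D/F* replicate 2, which reached 0.945 to 0.956 with the other *D/F* libraries of the same treatment. *Tet2* was lower in *T/F* than in *D/F* cells, at 30.0 to 35.8 against 38.3 to 43.4 TPM in DMSO, whereas *Dnmt3a*, at 29.3 to 55.7 TPM in *D/F* and 39.9 to 53.9 TPM in *T/F*, overlapped between the genotypes. A TPM of the whole gene does not show whether the floxed exons were lost. All 10 c-Kit+ leukemic progenitor markers were in the table (*Kit* at 50.5 to 148.8 TPM in the *D/F* DMSO libraries). In *T/F* their summed level was lower in CCS1477 without overlap, at 1916.8 to 3257.3 against 4672.0 to 6898.2 TPM. In *D/F* it was 975.1 to 4466.4 TPM in CCS1477 against 4297.2 to 10639.0 TPM in DMSO, and the treatments overlapped. The 9 mature neutrophil markers summed to 1671.9 to 9511.3 TPM over the *D/F* libraries and 2377.3 to 7208.3 TPM over the *T/F* libraries and overlapped between treatments. Monocyte or macrophage markers (8 of 9 in the table) summed to 172.3 to 594.7 TPM in *D/F* CCS1477 against 554.1 to 1403.5 TPM in *D/F* DMSO, which overlapped. In *T/F* they summed to 222.8 to 326.7 against 608.0 to 800.9 TPM, without overlap. T or NK cell markers (6 of 9) summed to 33.2 to 48.1 TPM in CCS1477 and 85.1 to 186.4 TPM in DMSO, endothelial or stromal markers (3 of 6) to 22.2 to 37.0 and 62.2 to 166.0 TPM, mast cell or basophil markers (4 of 5) to 18.8 to 44.0 and 42.5 to 183.1 TPM, and B cell markers (3 of 7) to 5.54 to 15.9 and 12.2 to 25.6 TPM. These 4 sums were lower in CCS1477 with no overlap within either genotype. A sum follows its highest genes and need not hold for each marker. *Nkg7* was at 101.1 to 159.5 TPM in *D/F* DMSO and 5.49 to 26.9 TPM in *D/F* CCS1477. *Cd3d*, *Cd4* and *Cd8a* overlapped between treatments in both genotypes. *Lepr*, on the endothelial or stromal list, was higher in CCS1477 in both genotypes. *Pax5*, on the B cell list, was higher in CCS1477 in *D/F*, at 0.488 to 1.32 against 0.368 to 0.445 TPM, and lower in *T/F*. *Ebf1*, on the same list, overlapped between treatments in both genotypes. *Retnlg* in *D/F* and *Mmp8* in *T/F* were lower without overlap, unlike the neutrophil sum. Megakaryocyte markers (5 of 6) summed to 33.9 to 36.6 TPM in *T/F* CCS1477 against 51.6 to 59.3 TPM in *T/F* DMSO, and to 20.5 to 67.5 against 36.5 to 218.0 TPM in *D/F*, where the treatments overlapped and the DMSO library of replicate 2 was the highest. Erythroid markers (7 of 8) lay between 10.8 and 36.4 TPM. *Cd79a*, *Ms4a1*, *Cd3e* and *Cd3g* were not analysed here. Some markers of the progenitors and of other cells thus moved with the drug along with the acetyltransferases, and their part in the results was not tested.

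The acetyltransferases spanned a wide range of levels. In DMSO, *Hat1* (112.5 TPM ± 13.0, SD over 6 libraries) and *Kat7* (110.9 ± 6.55) led, above at least 90.7% of all genes in the table. *Kat2a* (64.4 ± 6.01), *Ep300* (59.5 ± 3.73), *Crebbp* (52.0 ± 5.11) and *Kat6a* (46.4 ± 5.55) followed, then *Kat5* (32.8 ± 1.82), *Kat2b* (29.3 ± 4.59) and *Kat8* (16.4 ± 1.45). *Kat6b* came last at 3.04 ± 0.647 TPM, a level that only 18.3% of genes were below. The order had steps at some places only: *Kat7* and *Kat2a*, *Kat6a* and *Kat5*, *Kat2b* and *Kat8*, and *Kat8* and *Kat6b* did not overlap over the 6 libraries, while the ranges of every other pair of neighbours did. In CCS1477, *Hat1* (119.3 ± 14.9) and *Kat7* (110.7 ± 6.93) were still first, *Ep300* (101.0 ± 6.64) and *Crebbp* (90.6 ± 11.6) came next with ranges that overlapped those above them, and *Kat2a* went from the third place to the eighth at 28.5 ± 5.37 TPM. *Kat2b* (49.2 ± 5.85) and *Kat5* (41.8 ± 1.38) then stood above *Kat2a* in all 6 libraries.

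**Figure D1:**
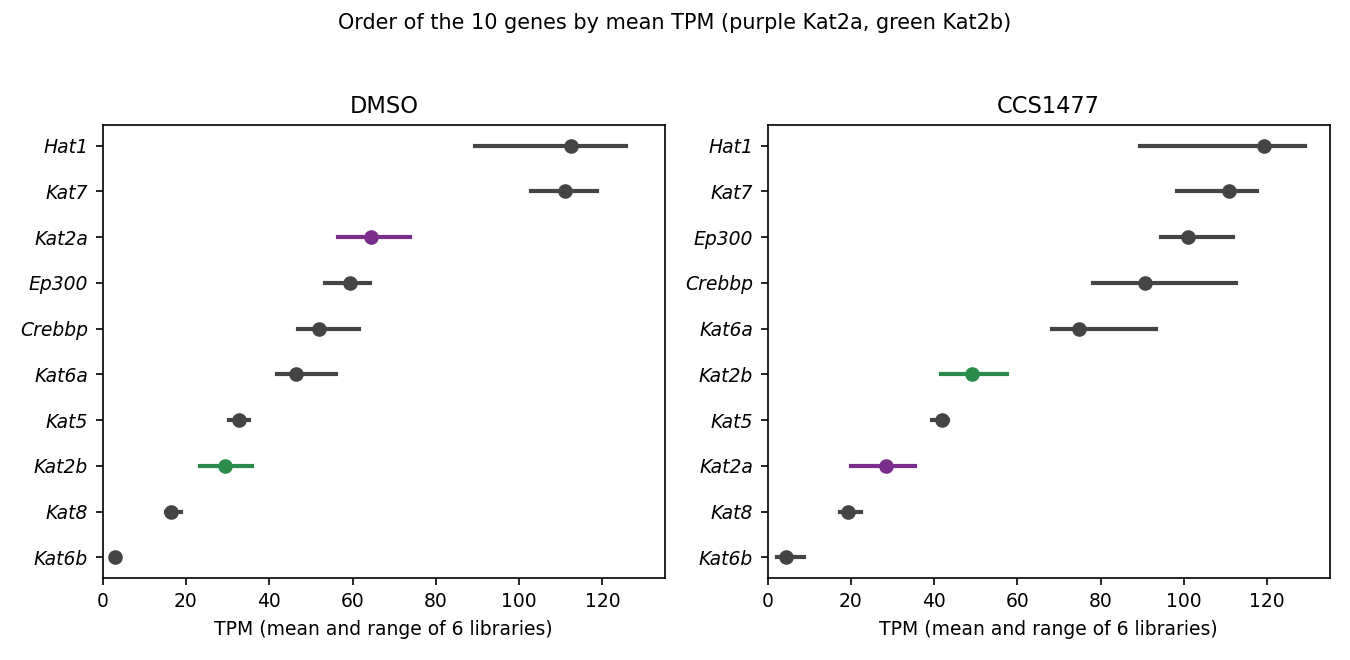
Mean TPM (points) and range over 6 libraries (bars) of the 10 acetyltransferase genes in DMSO (left) and CCS1477 (right), each sorted by mean. Kat2a (purple) has a mean of 64.4 TPM in DMSO and 28.5 TPM in CCS1477, and Kat2b (green) 29.3 and 49.2 TPM.

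In limma fits of log2(TPM + 1) across all genes tested, 2 of the 10 acetyltransferases passed an adjusted p of 0.05 for CCS1477 against DMSO in *D/F* (1 higher, 1 lower), where 11.6% of all genes passed (5.14% higher and 6.51% lower). In *T/F*, 6 of 10 passed (5 higher, 1 lower) against 43.4% of all genes (25.8% higher and 17.6% lower), and in the fit that joined the genotypes, with a term for genotype, again 6 of 10 (5 higher, 1 lower) against 45.3% (25.8% higher and 19.6% lower). The shares of all genes in *T/F* depended on the scaling: 59.4% of the calls were higher as deposited and 49.3% after each library was rescaled to its median gene. After this rescaling, 5 acetyltransferases and 40.6% of all genes passed. The median log2 change of the 10 genes was 0.45 in *D/F*, 0.26 in *T/F* and 0.36 over both, beside 0.06, 0.07 and 0.07 for all genes. By range alone, CCS1477 and DMSO libraries did not overlap for 5 genes that were higher and 1 that was lower in *D/F* (19.9% and 16.7% of all genes) and for 6 higher and 1 lower in *T/F* (33.5% and 22.6%).

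The count in *D/F* turned on the libraries and on the pairing. Each mouse had given cells to both treatments, and with the mouse as a block 6 acetyltransferases passed in *D/F*: *Ep300*, *Crebbp*, *Kat2a*, *Kat5*, *Kat6a* and *Kat6b*. The share of all genes that passed rose as well, from 11.6% to 39.3%. Without *D/F* replicate 2, whose libraries stood apart, 5 passed beside 24.6% of all genes, and without replicate 1 or replicate 3 none did in the limma fit, nor did any other gene tested, with 3 and 2 of the 10 and 2494 and 2330 of all genes at an unadjusted p under 0.05. In *T/F* the count was 5 without replicate 1 or replicate 2, when *Kat5* did not pass, and 6 without replicate 3, beside 22.8%, 20.9% and 33.7% of all genes. Over both genotypes it was 6 or 7 whichever mouse was left out, beside 36.3% to 55.4% of all genes.

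**Figure D2:**
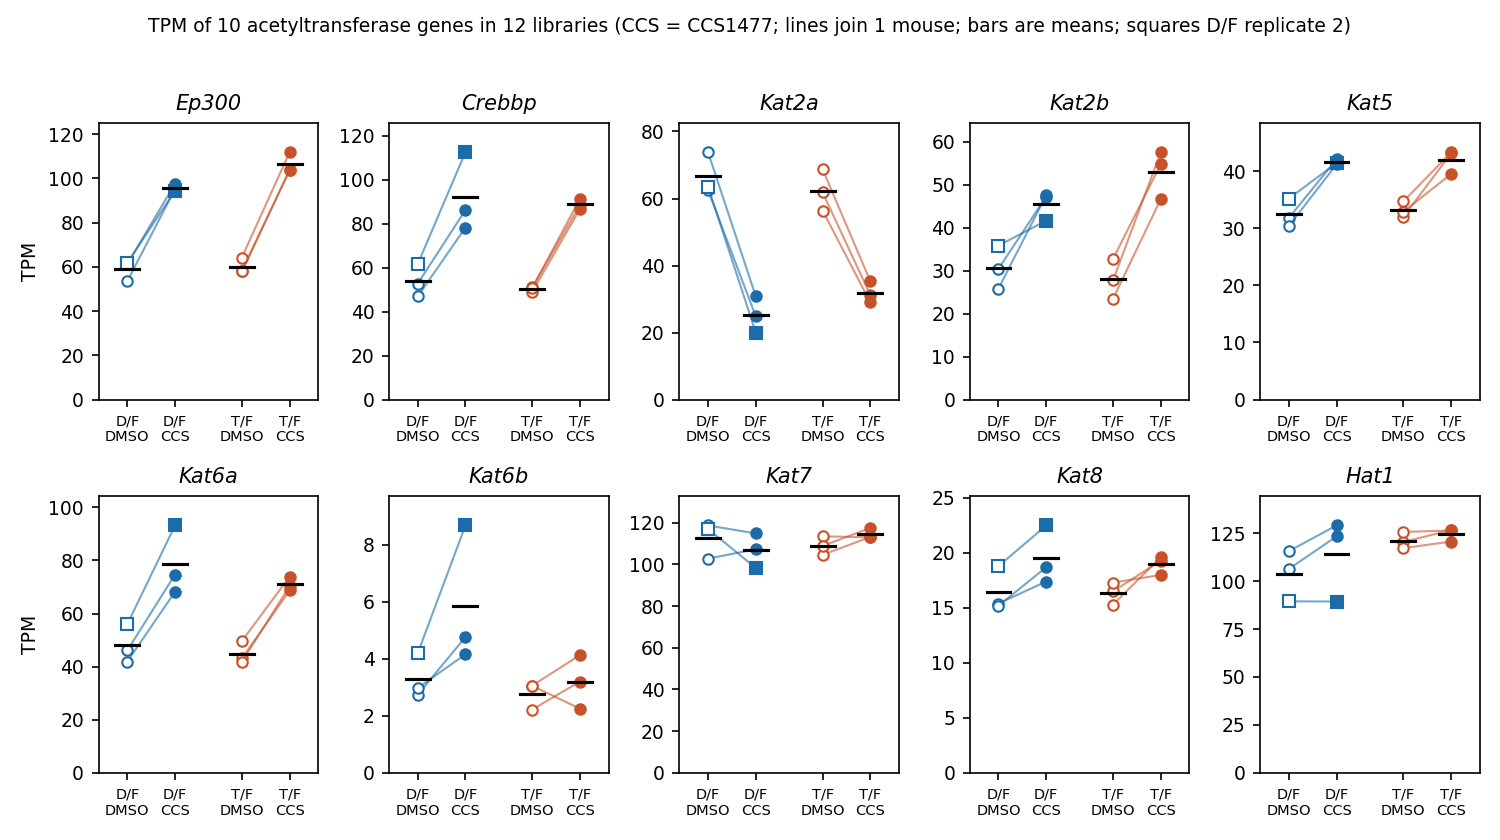
TPM of each gene (y axis, from 0) in the 12 libraries, D/F in blue and T/F in red, DMSO open and CCS1477 filled; a line joins the libraries of 1 mouse, a bar marks a group mean, and squares mark D/F replicate 2. Ep300, Crebbp, Kat2b, Kat5 and Kat6a are higher and Kat2a is lower in CCS1477 in all 6 mice.

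*Ep300* (ENSMUSG00000055024, chr15:81585351-81652077, plus strand, GRCm38) encodes p300. It was at 61.2, 61.8 and 53.5 TPM in the *D/F* DMSO libraries of replicates 1 to 3 and at 97.6, 94.4 and 95.2 TPM in their CCS1477 libraries. In *T/F* it was at 58.1, 64.2 and 57.9 TPM in DMSO and at 103.7, 111.8 and 103.7 TPM in CCS1477. The treatments did not overlap in either genotype, and every mouse rose, by 1.53- to 1.79-fold. The log2 change was 0.70 (SE 0.14, limma adjusted p = 0.0294) in *D/F*, 0.81 (SE 0.07, adjusted p = 0.00084) in *T/F* and 0.75 (SE 0.07, adjusted p = 8.32e-06) over both genotypes, a change that exceeded that of 92.6% of genes. In *D/F* the adjusted p was 0.281 without replicate 1 and 0.321 without replicate 3, with a log2 change of 0.71 and 0.63.

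*Crebbp* (ENSMUSG00000022521, chr16:4081328-4213997, minus strand) encodes CBP, the paralogue of p300. It was at 46.9, 61.6 and 52.7 TPM in *D/F* DMSO and 78.2, 112.5 and 86.2 TPM in *D/F* CCS1477. The *T/F* libraries held 49.0, 51.1 and 50.7 TPM in DMSO and 86.7, 88.5 and 91.4 TPM in CCS1477. Again no library of one treatment reached the other, and the ratio within a mouse lay between 1.64 and 1.83. Replicate 2 was the highest *D/F* library in both treatments, and the spread between CCS1477 libraries was 17.9 TPM (SD) in *D/F* against 2.36 TPM in *T/F*. The log2 change of 0.76 in *D/F* (SE 0.20) did not pass, with a limma adjusted p of 0.0562, which was 0.00864 with the mouse as a block and 0.0296 without replicate 2. In *T/F* it was 0.81 (SE 0.06, adjusted p = 0.00051) and over both genotypes 0.79 (SE 0.10, adjusted p = 7.54e-05).

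The paralogues kept a similar proportion. *Ep300* stood at 1.11 ± 0.168 times *Crebbp* in *D/F* DMSO, 1.06 ± 0.208 in *D/F* CCS1477, 1.2 ± 0.0603 in *T/F* DMSO and 1.2 ± 0.0651 in *T/F* CCS1477 (SD, n = 3). *Crebbp* exceeded *Ep300* in the CCS1477 library of *D/F* replicate 2 (ratio 0.839). Summed, the pair went from 112.6 ± 9.43 to 188.0 ± 16.5 TPM in *D/F* and 110.3 ± 4.37 to 195.3 ± 4.95 TPM in *T/F*, and from 21.4% to 30.1% and from 20.9% to 29.8% of the TPM of the 10 genes.

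*Kat2a* and *Kat2b* encode GCN5 and PCAF, close paralogues that take the same place in SAGA and ATAC, and they moved in opposite directions. *Kat2a* (ENSMUSG00000020918, chr11:100704746-100712465, minus strand) was at 62.5, 63.5 and 73.8 TPM in *D/F* DMSO and 24.8, 20.0 and 30.8 TPM in *D/F* CCS1477. In *T/F* it was at 61.8, 56.4 and 68.7 TPM in DMSO and 31.2, 29.0 and 35.3 TPM in CCS1477. The highest CCS1477 library was thus well below the lowest DMSO library. *Kat2a* fell by 1.38 on the log2 scale in *D/F* (SE 0.20, limma adjusted p = 0.0124), by 0.95 in *T/F* (SE 0.11, adjusted p = 0.00165) and by 1.16 over both genotypes (SE 0.12, adjusted p = 2.86e-05). It was the only acetyltransferase of the 10 that passed with more than a 2-fold change, in *D/F* (7.28% of all genes) and over both genotypes (8.8%), and none did in *T/F* (7.33%). In *D/F* the adjusted p was 0.168 without replicate 1 and 0.181 without replicate 3, with a log2 change of -1.42 and -1.46.

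*Kat2b* (ENSMUSG00000000708, chr17:53566861-53672720, plus strand) was at 30.4, 35.8 and 25.8 TPM in *D/F* DMSO and 47.2, 41.6 and 47.5 TPM in *D/F* CCS1477. The *T/F* values were 23.4, 32.7 and 27.7 TPM in DMSO and 46.6, 54.7 and 57.5 TPM in CCS1477. Treatments did not overlap in either genotype, and the ratio within a mouse was smallest in *D/F* replicate 2, at 1.16, and otherwise 1.55 to 2.08. The log2 change was 0.90 in *T/F* (SE 0.14, limma adjusted p = 0.00458) and 0.73 over both genotypes (SE 0.12, adjusted p = 0.000423). In *D/F* it was 0.56 (SE 0.17) with an adjusted p of 0.0842, which did not pass with the mouse as a block either and passed without replicate 2, where the log2 change was 0.74 (adjusted p = 0.0291). The ratio of *Kat2a* to *Kat2b* was 2.23 ± 0.559 in *D/F* DMSO and 2.28 ± 0.492 in *T/F* DMSO, and 0.552 ± 0.0867 and 0.605 ± 0.0699 in CCS1477 (SD, n = 3). *Kat2a* was the higher of the pair in all 6 DMSO libraries and the lower in all 6 CCS1477 libraries. Their sum was 97.3 ± 3.78 TPM in *D/F* DMSO and 70.7 ± 8.44 TPM in *D/F* CCS1477, and 90.3 ± 5.68 and 84.8 ± 7.56 TPM in *T/F*, so that in *T/F* the sums of the treatments overlapped.

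The bases just upstream of the starts of *Kat2a* and *Kat2b* are shown because these paralogues diverged, with each CG, the dinucleotide on which Dnmt3a and Tet2 act, in capitals. They are RefSeq promoter sequence of GRCm38.p6, given 5′ to 3′ along the gene and ending where the gene's annotated transcript begins, 250 bases at chr11:100712468-100712717 (minus strand) for *Kat2a* and 140 bases at chr17:53566721-53566860 (plus strand) for *Kat2b*.
Kat2a: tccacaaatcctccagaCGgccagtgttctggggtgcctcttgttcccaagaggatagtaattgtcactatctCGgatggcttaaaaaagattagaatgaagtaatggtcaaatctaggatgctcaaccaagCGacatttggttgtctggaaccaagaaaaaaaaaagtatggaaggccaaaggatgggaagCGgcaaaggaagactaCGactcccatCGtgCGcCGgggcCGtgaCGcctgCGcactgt
Kat2b: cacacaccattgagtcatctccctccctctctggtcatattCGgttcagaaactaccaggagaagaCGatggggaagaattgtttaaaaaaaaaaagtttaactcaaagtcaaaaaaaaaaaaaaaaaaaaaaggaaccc
The *Kat2a* stretch holds 11 CG in its 250 bases, most of them next to the start, and the *Kat2b* stretch holds 2 in its 140. Over the full windows of 250 bases the counts were 11 and 6. Over the 250 bases before the RefSeq start, 9 of the 10 acetyltransferases had an entry (*Kat6a* had none). Where a gene had 2 entries, as *Kat2b* did, the one nearest its GENCODE start was used. Their GC content ran from 40.8% in *Kat2b* and 48.8% in *Kat2a* to 73.2% in *Ep300*, 78.8% in *Kat6b* and 84.0% in *Crebbp*, beside a median of 52.4% over 32851 promoters. The windows of *Ep300*, *Crebbp*, *Kat6b* and *Hat1* lie inside the GENCODE gene, whose start is 863, 593, 18336 and 302 bases before the RefSeq start, so they are not the same kind of stretch as the upstream window of *Kat2a*. Those of *Kat2b* and *Kat5* lie partly inside, by 110 and 143 bases. CG counts ran from 6 in *Kat2b* to 25 in *Ep300* and 44 in *Crebbp*, beside a median of 6. The E-box CACGTG, a palindrome and so the same on both strands, was in 2 of the 9 windows (*Kat5* and *Hat1*) and in 6.02% of all promoters. The cAMP response element TGACGTCA, also a palindrome, was in 0 of the 9 and in 1.55% of all. Methylation was not measured in these libraries.

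The 5 MYST genes responded unequally. *Kat6a* (ENSMUSG00000031540, chr8:22859535-22943259, plus strand) encodes MOZ, an enzyme needed for hematopoietic stem cells and joined to *Crebbp* or *Ep300* in some leukemic fusions. It was at 41.9, 56.0 and 46.1 TPM in *D/F* DMSO and 68.2, 93.2 and 74.7 TPM in *D/F* CCS1477. In *T/F* it was at 43.1, 41.8 and 49.6 TPM in DMSO and 68.7, 70.3 and 73.9 TPM in CCS1477. No CCS1477 library overlapped a DMSO library, and the ratio within a mouse was 1.49 to 1.68. *Kat6a* rose by 0.65 on the log2 scale in *T/F* (SE 0.09, limma adjusted p = 0.0024) and by 0.68 over both genotypes (SE 0.10, adjusted p = 0.000207). In *D/F* the log2 change was 0.70 (SE 0.19) at an adjusted p of 0.0626, and 0.0088 with the mouse as a block. Like *Crebbp*, it was highest in replicate 2 among the *D/F* libraries of each treatment.

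*Kat5* (ENSMUSG00000024926, chr19:5603014-5610237, minus strand) encodes TIP60, an acetyltransferase of H4 and H2A that also acts in DNA repair. It was at 31.8, 35.2 and 30.4 TPM in *D/F* DMSO against 42.1, 41.4 and 41.2 TPM in CCS1477, and at 34.7, 32.0 and 32.9 TPM in *T/F* DMSO against 43.3, 43.1 and 39.5 TPM in CCS1477. The change was small and seen in 6 of 6 mice, with no overlap of the treatments. The log2 change was 0.33 in *T/F* (SE 0.07, limma adjusted p = 0.0121) and 0.34 over both genotypes (SE 0.06, adjusted p = 0.00101). In *T/F* the adjusted p was 0.0791 without replicate 1 and 0.119 without replicate 2, with a log2 change of 0.34 and 0.28. In *D/F* the log2 change was 0.35 (SE 0.14, adjusted p = 0.147), or 0.0462 when the mouse was a block. *Kat5* shares 4006 bases with *Rnaseh2c* on the opposite strand. The labels name a stranded kit, but whether strand was used in the quantification is not given in the sources used here, so reads of the overlap may have been assigned to either gene.

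*Kat6b*, *Kat8* and *Kat7* did not pass in either genotype. *Kat6b* (ENSMUSG00000021767, chr14:21481434-21672478), which encodes the MOZ paralogue MORF, was at 2.74, 4.19 and 2.97 TPM in *D/F* DMSO and 4.76, 8.68 and 4.16 TPM in *D/F* CCS1477. In *T/F* it was at 2.22, 3.05 and 3.06 TPM in DMSO and 3.20, 2.25 and 4.13 TPM in CCS1477. It was higher under CCS1477 in 5 of 6 mice, with overlapping groups, and its log2 change of 0.63 in *D/F* (SE 0.28, limma adjusted p = 0.186) reached an adjusted p of 0.027 with the mouse as a block. *Kat8* (ENSMUSG00000030801, chr7:127912516-127925837), which encodes the H4K16 acetyltransferase MOF, had 15.4, 18.8 and 15.2 TPM in *D/F* DMSO and 17.4, 22.5 and 18.7 TPM in *D/F* CCS1477. Its *T/F* values were 15.3, 16.5 and 17.3 TPM in DMSO and 19.6, 19.3 and 18.0 TPM in CCS1477. It was higher in 6 of 6 mice, by 1.04- to 1.28-fold, and the *T/F* treatments did not overlap. Its log2 change over both genotypes was 0.22 (SE 0.08) with an adjusted p of 0.0515, 0.00928 with the mouse as a block and 0.00831 without *D/F* replicate 2.

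*Kat7* (ENSMUSG00000038909, chr11:95274259-95310246, minus strand) encodes HBO1, which acetylates H3K14 and H4 and is known for its part in DNA replication licensing. It was at 118.7, 117.0 and 102.8 TPM in *D/F* DMSO and 114.9, 98.3 and 107.3 TPM in *D/F* CCS1477. The *T/F* values were 104.6, 113.5 and 108.9 TPM in DMSO and 113.2, 113.0 and 117.5 TPM in CCS1477. The groups overlapped, 3 mice were higher and 3 lower, and the 95% confidence interval of the log2 change over both genotypes was -0.16 to 0.15. *Hat1* (ENSMUSG00000027018, chr2:71388958-71441622, plus strand), the acetyltransferase of new histones, was at 106.4, 89.5 and 115.7 TPM in *D/F* DMSO and 123.4, 89.4 and 129.1 TPM in *D/F* CCS1477. The *T/F* libraries held 120.5, 125.7 and 117.3 TPM in DMSO and 126.7, 126.5 and 120.7 TPM in CCS1477. Its log2 change over both genotypes was 0.08 with a 95% confidence interval of -0.14 to 0.30, and *D/F* replicate 2 was its lowest library in each treatment. A pseudogene, *Gm13642*, shares 381 bases with *Hat1* on the opposite strand and has a row of its own in the table. The interval of *Kat7* thus ends below the 0.34 measured for *Kat5*.

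**Figure D3:**
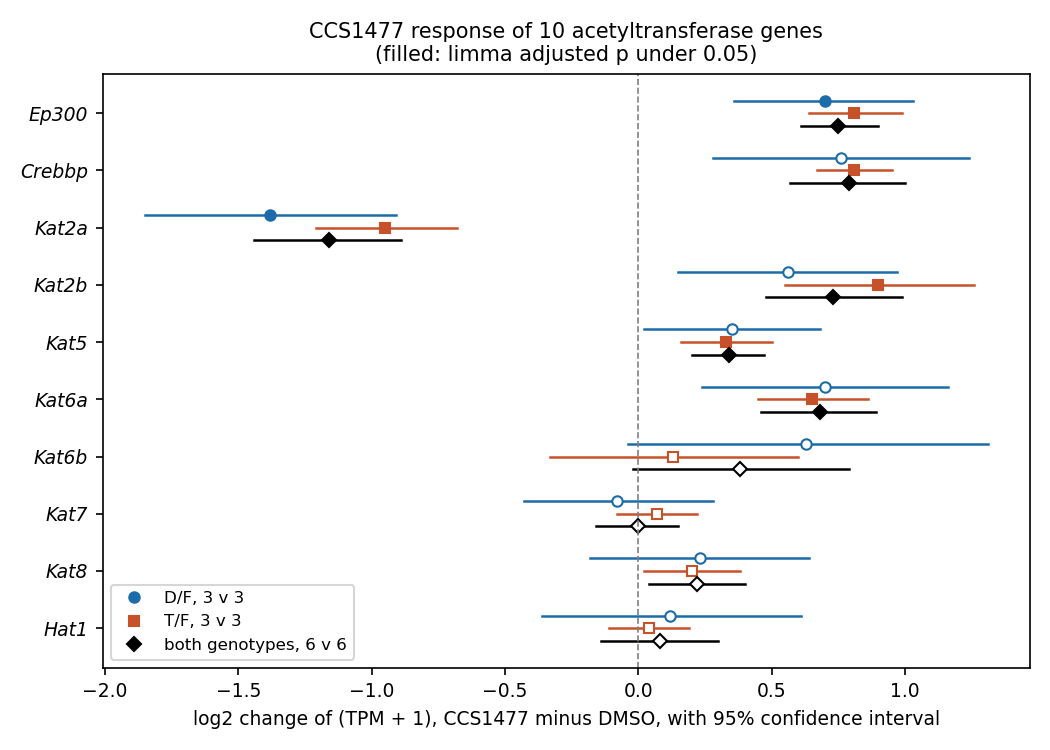
Log2 change of (TPM + 1), CCS1477 minus DMSO, with its 95% confidence interval, for D/F (blue circles, 3 against 3), T/F (red squares, 3 against 3) and both genotypes (black diamonds, 6 against 6); filled symbols passed a limma adjusted p of 0.05. Kat2a is the only gene whose 3 intervals lie below 0, and the D/F interval is wider than the T/F interval for every gene.

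Taking the 10 genes as a sum, the level went from 526.8 ± 14.4 to 625.1 ± 8.56 TPM in *D/F* and 527.9 ± 13.3 to 654.2 ± 10 TPM in *T/F* (SD, n = 3). The MYST genes made up 40.4% of the sum in *D/F* DMSO and 40.4% in *D/F* CCS1477, and 39.1% and 38.2% in *T/F*. GCN5 and PCAF went from 18.5% to 11.3% in *D/F* and from 17.1% to 12.9% in *T/F*. Across the 12 libraries, *Crebbp* and *Kat6a* had a Pearson correlation of 0.98 in log2(TPM + 1), *Ep300* and *Kat5* as well as *Ep300* and *Kat2b* had 0.95, and *Kat2a* had -0.92 with *Ep300* and -0.93 with *Crebbp*. *Kat7* had between -0.33 and 0.33 with each of the others. These are descriptions: the libraries fall into treated and untreated ones, and those of a mouse share their cells.

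The genotypes were compared next, first for their response. No acetyltransferase passed the limma test of the difference between the responses, *T/F* minus *D/F*, and 0 of 15583 genes (0%) did, with 659 genes (4.23%) and none of the 10 at an unadjusted p under 0.05. The log2 differences lay between -0.50 (*Kat6b*) and 0.44 (*Kat2a*). For *Kat2a*, which fell less at 2 µM in *T/F* than at 4 µM in *D/F*, the 95% confidence interval of the difference was -0.06 to 0.93. For *Ep300* it was -0.17 to 0.41 and for *Crebbp* -0.40 to 0.50. With the mouse as a block the intervals were narrower, 0.14 to 0.73 for *Kat2a*, -0.11 to 0.34 for *Ep300* and -0.16 to 0.26 for *Crebbp*. In that fit *Kat2a* alone of the 10 had an unadjusted limma p under 0.05, beside 14.7% of all genes, and its adjusted p was 0.241. Its ratio within a mouse was 0.316 to 0.418 in *D/F* and 0.505 to 0.514 in *T/F*. How many other genes separate the genotypes by this ratio was not determined.

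Between the genotypes none of the 10 passed the limma test in DMSO or in CCS1477, where 0.0328% and 0.0329% of genes passed, and 0 of the 10 had an unadjusted p under 0.05 in either. In DMSO, *Hat1* alone did not overlap, with every *T/F* library above every *D/F* library (5.17% of all genes were apart in that direction), at a log2 difference of 0.23 (SE 0.13, limma adjusted p = 0.923). In CCS1477, *Ep300* was apart and higher in *T/F* (9.59% of all genes), at 0.15 (SE 0.10, adjusted p = 0.611), and *Kat6b* was apart and lower (10.7%), at -0.68 (SE 0.28, adjusted p = 0.465). The dose differed between the CCS1477 groups. The median log2 difference of the 10 genes was -0.07 in DMSO and 0.06 in CCS1477, beside -0.04 and -0.03 for all genes.

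The partners of these enzymes were read from 8 lists of complex subunits and pathway genes, in the fit over both genotypes, in which 25.8% of all genes passed as higher and 19.6% as lower and the median log2 change was 0.07. The list medians were -0.02 for other acetyltransferases, 0.05 for SAGA and ATAC, 0.21 for TIP60, 0.32 for MOZ, MORF and HBO1, 0.09 for MSL and NSL, -0.03 for the partners of HAT1, -0.06 for the p300/CBP adaptors and 0.00 for acetyl-CoA supply. Of 16 other acetyltransferases, 7 were higher and 8 lower. *Nat10*, which acetylates cytidine in ribosomal and other RNA, went from 160.2 ± 25.5 to 52.4 ± 9.45 TPM in *D/F* and 138.5 ± 20.5 to 55.1 ± 3.62 TPM in *T/F*, a log2 change of -1.45 (limma adjusted p = 6.65e-06). *Kat14*, the other acetyltransferase of ATAC, fell by 0.83 (adjusted p = 0.000106) and *Naa60*, which acetylates protein N-termini, by 0.49 (adjusted p = 0.000761), each past the threshold in both genotypes. The 7 that rose over both genotypes were the tubulin acetyltransferase *Atat1* (0.82), the steroid receptor coactivators *Ncoa1* (0.81), *Ncoa2* (0.52) and *Ncoa3* (0.56), which are partners of p300 and CBP, the circadian factor *Clock* (0.62) and the cohesin acetyltransferases *Esco1* (0.57) and *Esco2* (0.35). Genes of the lists that are named with the change over both genotypes only were chosen after their values were seen.

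Of the 22 SAGA and ATAC subunits, which serve GCN5 and PCAF, 8 were higher and 4 lower. The higher genes numbered 5 without *D/F* replicate 1 or any of the *T/F* mice. The lower ones numbered 2 without *D/F* replicate 1 and 1 without *D/F* replicate 3 or *T/F* replicate 1 or 2. The share of all genes that passed moved as well, from 45.3% to 40% without *D/F* replicate 1 and 38.7% without *D/F* replicate 3. That share was 36.3% to 37.1% without a *T/F* mouse, 55.4% without *D/F* replicate 2, 60.3% with the mouse as a block and 45.1% after rescaling. The list counts below stand beside these shares. *Taf5l*, a core SAGA subunit, went from 43.4 ± 2.77 to 21.7 ± 2.1 TPM in *D/F* and 42.9 ± 3.21 to 22.1 ± 0.361 TPM in *T/F*. Its log2 change over both genotypes was -0.95 (limma adjusted p = 3.07e-06), beside -1.16 for *Kat2a*. Of the 17 TIP60 subunits, 9 were higher and 2 lower (4 without *D/F* replicate 2 or with the mouse as a block). Among them *Ing3*, which reads H3K4me3, rose from 41.1 ± 4.10 to 65.2 ± 2.97 TPM in *D/F* and 45.2 ± 3.75 to 60.3 ± 5.37 TPM in *T/F* (log2 change 0.53, adjusted p = 0.000409). The ATPases *Ruvbl1* (-0.85) and *Ruvbl2* (-1.10) were the members that fell, and *Trrap*, the large scaffold counted in both lists, rose by 0.89 (adjusted p = 0.000436).

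Of the 9 MOZ, MORF and HBO1 subunits, 5 were higher (3 without *T/F* replicate 1 or 2) and 3 lower. *Brpf3*, a scaffold that joins HBO1, went from 21.3 ± 6.01 to 50.8 ± 2.39 TPM in *D/F* and 19.9 ± 0.935 to 53.1 ± 1.43 TPM in *T/F* (log2 change 1.31, adjusted p = 6.44e-06), whereas *Jade1*, another HBO1 scaffold, went from 31.8 ± 1.26 to 20.3 ± 2.25 TPM and from 29.1 ± 1.48 to 22.8 ± 1.48 TPM (-0.48, adjusted p = 0.000648). *Brpf3* and *Jade1* therefore moved apart while *Kat7* itself did not pass. On the same list, *Brpf1* fell (-0.29, limma adjusted p = 0.00586), and *Brd1* (0.37, adjusted p = 0.00445) and *Jade3* (0.37, adjusted p = 0.00646) rose. *Jade2* did not pass (-0.45, adjusted p = 0.0876). Of the 12 MSL and NSL subunits that accompany MOF, 2 were higher (6 without *D/F* replicate 2 and 4 with the mouse as a block) and 2 lower, and *Kansl2* fell by 0.69 (adjusted p = 7.7e-05). Of 8 HAT1 and histone chaperone partners, 2 were higher (1 after rescaling) and 1 lower: *Ipo4*, the importin of new histones, went from 65.6 ± 17.5 to 23.7 ± 5.05 TPM in *D/F* and 48.7 ± 10.5 to 23.7 ± 1.18 TPM in *T/F* (-1.20, adjusted p = 0.000158).

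Of the 17 CITED and other p300/CBP adaptors in the table, 0 were higher, at an unadjusted p under 0.05 as well, and 5 lower (2 without *D/F* replicate 1, 3 without *D/F* replicate 3 or any 1 of the *T/F* mice). *Myb*, a transcription factor that binds the KIX domain of p300 and CBP and is also on the progenitor marker list, went from 345.5 ± 55.2 to 68.1 ± 10.5 TPM in *D/F* and 239.3 ± 18.5 to 78.7 ± 14.3 TPM in *T/F* (log2 change -1.97, adjusted p = 4.91e-06). *Trp53*, the p53 tumor suppressor, went from 173.0 ± 24.1 to 101.3 ± 14.5 TPM and from 165.4 ± 15.7 to 114.5 ± 6.21 TPM (-0.65, adjusted p = 0.000422). *Hif1a* (-0.38), *Stat5a* (-0.51) and *Atf1* (-0.27) were the others that fell, and the CREB coactivators *Crtc1*, *Crtc2* and *Crtc3* had log2 changes of 0.00, 0.08 and -0.06 that did not pass. Of 12 genes of acetyl-CoA supply, 4 were higher and 1 lower (2 without *D/F* replicate 2). *Acat2*, a cytosolic thiolase, rose by 0.87 in *D/F* (adjusted p = 0.0269) and 0.48 in *T/F* (adjusted p = 0.0104), and of the acetyl-CoA synthetases the cytosolic *Acss2* rose by 1.04 while the mitochondrial *Acss1* fell by 0.92 over both genotypes. In *D/F* alone, where 5.14% of all genes passed as higher and 6.51% as lower, 0 to 1 genes of a list were higher and 0 to 3 lower. These counts moved with those of all genes, to 0 to 7 higher and 1 to 7 lower with the mouse as a block, to 0 to 6 and 0 to 5 without *D/F* replicate 2, and to 0 in each direction without replicate 1 or replicate 3, when no gene of the table passed the limma test and 2494 and 2330 had an unadjusted p under 0.05.

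**Figure D4:**
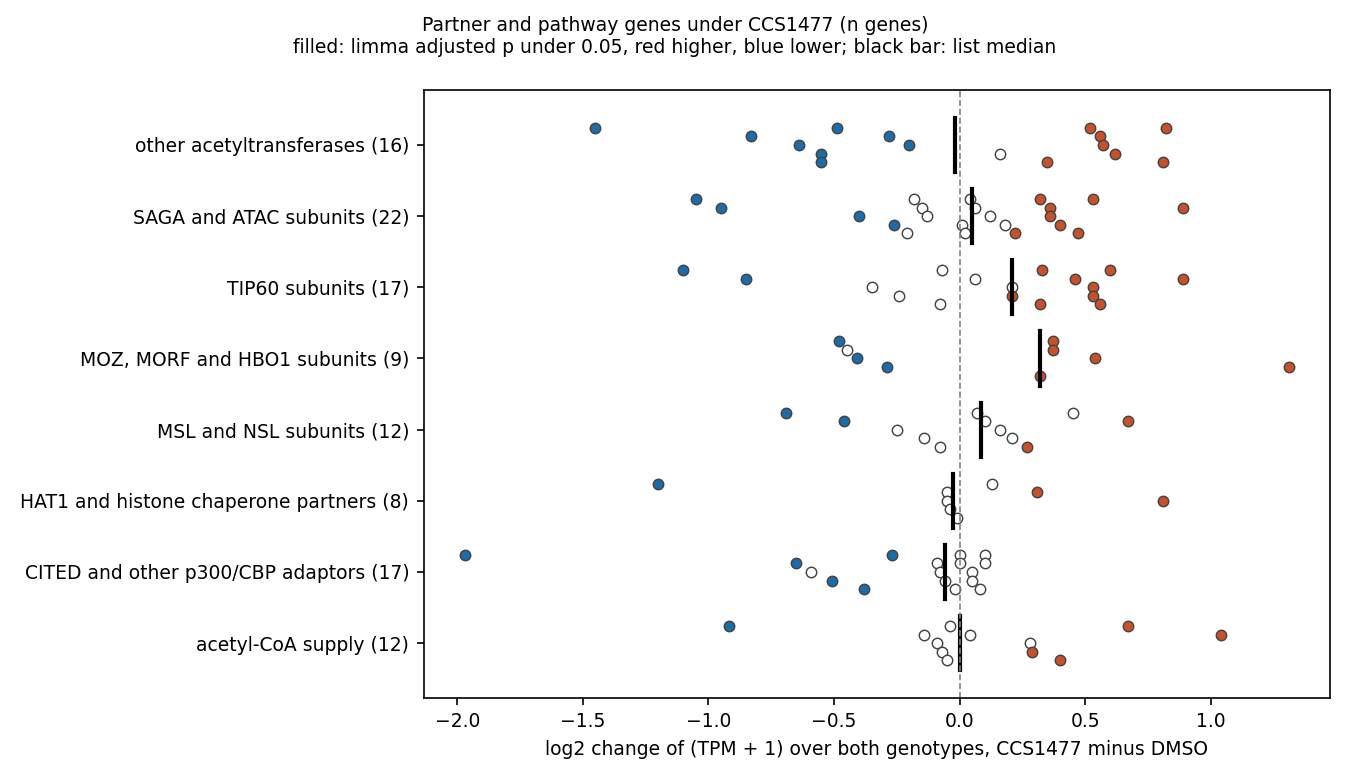
Log2 change of (TPM + 1) over both genotypes for each gene of 8 lists of partners and pathway genes (number of genes in brackets), filled where the limma adjusted p was under 0.05 (red higher, blue lower), with a black bar at the list's median. The TIP60 and the MOZ, MORF and HBO1 lists have medians of 0.21 and 0.32, and Myb, at -1.97, is the leftmost gene.

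The genes with the closest pattern to the drug targets over the 12 libraries, among 11604 genes that averaged 5 TPM or more, were *Taok1* (Pearson r 0.987), *Baz2a* (0.986), *Cdkn1b* (0.985), *Ctbs* (0.984) and *Fez2* (0.982) for *Ep300*. For *Crebbp* they were *Map3k7* (0.988), *Med15* (0.987), *Tspyl4* (0.986), *Crkl* (0.985) and *Slx4* (0.985). For *Kat2a*, the gene of the 10 with the largest log2 change over both genotypes, they were *Exosc1* (0.993), *Pum3* (0.991), *Rrp15* (0.990), *Nifk* (0.989) and *Timm10* (0.989). *Cdkn1b*, which encodes the cell cycle inhibitor p27, went from 34.3 to 66.4 TPM with *Ep300*, and *Exosc1*, a subunit of the RNA exosome, from 52.7 to 20.0 TPM with *Kat2a*. All 15 genes share with their acetyltransferase the separation of treated from untreated libraries, and *Pum3*, *Rrp15* and *Nifk* encode nucleolar proteins.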

How the data were processed

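RNA-seq of c-Kit+ leukemic splenocytes (12 libraries, 4 groups of 3) was analysed from the TPM that the authors deposited per Ensembl gene. The submitters' processing notes name kallisto and mm10, and the paper's methods name AltAnalyze; the version of kallisto, its annotation and use of strand are not given in the sources used here. No row had a highest value under 2.00 TPM, and libraries summed to between 914204 and 931697 TPM. TPM keeps no read numbers, so depth is unknown and no count model was fitted; precision is the spread between 3 mice.

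Differences were fitted on log2(TPM + 1), a scale that understates changes of low genes, with limma (version 3.58.1, R 4.3.3). P-values were two-sided and were adjusted by Benjamini-Hochberg across every gene that averaged 1 TPM or more in a group compared; all 10 acetyltransferases passed that filter, and a gene passed the test at an adjusted p under 0.05. The fits were run on simulated data with independent noise, to check that a planted log2 change was recovered in size. The simulation held no correlation within a mouse and gave a gene the same spread in every group, so it cannot test the calls in *D/F*. The mouse numbers of the labels pair the treatments: deviations from group means correlated at 0.354 to 0.669 within a mouse and at most 0.141 between mice of a genotype. The study states no pairing, and the fit without the mouse was kept as the main one although the labels pair the cultures. For CCS1477 against DMSO its errors, intervals and calls therefore leave out the correlation within a mouse. Results with the mouse as a block are given beside it where calls differed. Named from each list were up to 4 genes with the largest change that passed in both genotypes in 1 direction and averaged 5 TPM or more in a group. The acetyltransferases and lists were chosen with earlier results of these data known. Positions are from GENCODE (GRCm38) and promoters from RefSeq (GRCm38.p6). The protein sequences were not used here.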

Additional observations from a re-analysis of the deposited data

How the results depend on the processing

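In *D/F*, 2 acetyltransferases passed as reported, and 4 with a filter at 5 TPM, with each library rescaled to its median gene or with a trend in eBayes. With the mouse as a replicate block 6 passed, and 6 in a shared fit of the 4 groups. Of all genes, 11.6% passed as reported, 17.1% with the filter, 14.8% rescaled, 14% with the trend, 39.3% with the block and 31.9% in the shared fit. Leaving out 1 mouse gave 0 to 5 acetyltransferases in *D/F*, 5 to 6 in *T/F* and 6 to 7 over both genotypes. Among all genes, the 1805 calls in *D/F* became 6098 with the block, 4940 in the shared fit, 3739 without replicate 2 and 0 without replicate 1 or replicate 3, and the 6620 in *T/F* became 3713 in the shared fit, 3473 without replicate 1 and 3192 without replicate 2. The 5 genes that passed between genotypes became 1 to 20 in DMSO and 2 to 71 in CCS1477, never with an acetyltransferase among them. The block also carried *Kat8* over the threshold over both genotypes (adjusted p = 0.00928), which a pseudocount of 0.1, a filter at 5 TPM and leaving out *D/F* replicate 2 did too, and changed no other call outside *D/F*. Between genotypes the replicate numbers join different mice, and a block by number changed no call for the 10 genes.

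Directions turned only for log2 changes that had not passed. Rescaling turned *Kat7* (-0.01) and *Hat1* (-0.04) under CCS1477 in *T/F*, and *Kat7* (0.00) and *Kat8* (0.04) between genotypes in DMSO. Leaving out 1 mouse gave log2 changes of *Kat7* from -0.15 to 0.01 in *D/F* and from -0.03 to 0.05 over both genotypes, and in the difference of responses *Kat5* from -0.08 to 0.02 and *Kat8* from -0.10 to 0.04. Between genotypes in DMSO it gave values of *Ep300* from -0.03 to 0.07, *Crebbp* from -0.18 to 0.02, *Kat5* from -0.01 to 0.09, *Kat6a* from -0.18 to 0.02 and *Kat8* from -0.06 to 0.09. In CCS1477 it gave values of *Crebbp* from -0.15 to 0.11, *Kat5* from -0.01 to 0.05, *Kat8* from -0.11 to 0.07 and *Hat1* from -0.02 to 0.24. The causes were not tested. With 3 mice a group, the depth of each library unknown and relative units, small changes of *Kat7* and *Hat1* could not be resolved. *Kat6b* in *D/F*, at a log2 change of 0.63, passed in 1 of 10 other settings. *Kat8* over both genotypes passed in 4 of 13, so neither was settled.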
